A study of Mus musculus with 10 samples.

Results

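The genes described here are the immunoglobulin genes of the mouse and 3 genes of the cells that secrete antibody. They were taken by symbol: every gene whose symbol begins Ighv, Ighj, Igha, Ighm, Ighg, Igkv, Igkj, Igkc, Iglv or Iglc, and with them Jchain, Mzb1 and Tnfrsf17. This gave 372 of the 54838 genes listed for each library. One of them, Ighmbp2, is a helicase gene that the Ighm prefix takes in, which leaves 371. The remainder were 185 heavy chain V genes (Ighv), 160 kappa V genes (Igkv), 3 lambda V genes (Iglv), 4 heavy and 5 kappa J segments, 6 heavy constant genes, Igkc, 4 lambda constant genes and the 3 plasma cell genes.

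The libraries came from the jejunum of 10 mice, 5 labelled WT and 5 with conditional knockout of Arid3a (cKO), with crypt RNA of 1 animal in each. The cKO mice were VillinCre-ERT2+/-; Arid3a fl/fl, in which the Villin promoter places the tamoxifen-activated Cre in intestinal epithelial cells and not in blood cells. Both genotypes received tamoxifen on 3 consecutive days and were culled 1 month after the first injection. The alleles carried by the animals labelled WT were not given beyond that word. The animal identifiers of the genotypes carry different prefixes, and what a prefix stands for was not given. Whatever differs with the prefix cannot be told apart from genotype. Villi had been removed by scraping before crypt isolation, and the RNA sequenced was polyadenylated.

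Antibody-secreting plasma cells lie in the lamina propria of the small intestine, around the crypts, and most of them make IgA, which the joining chain links into dimers and which the epithelium carries into the lumen through the polymeric immunoglobulin receptor encoded by Pigr. Each B cell assembles 1 heavy and 1 light chain V gene by DNA recombination, and its descendants keep them. The V genes read in a piece of tissue report which V genes are in use there, but clones that share a V gene are not told apart. The constant genes report the class and the amount of the message. ARID3A was described in B cells, under the name Bright, as a protein that binds near heavy chain V promoters, and the Cre used here is not driven in those cells.

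Some V genes of the same subgroup are close copies of each other, and the bases that tell such copies apart are few. The kappa pair printed here was chosen because its members, of the same subgroup, parted between the genotypes, and the heavy pair because its members led the heavy V counts of cKO animals. Each is a 150-base stretch of the germline V region of GENCODE M21 (GRCm38), on the minus strand, written 5′ to 3′, with capitals at the bases that differ within the pair.
Igkv6-23: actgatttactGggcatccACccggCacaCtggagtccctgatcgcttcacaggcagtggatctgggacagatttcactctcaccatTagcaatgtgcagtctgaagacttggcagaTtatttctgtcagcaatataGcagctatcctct
Igkv6-15: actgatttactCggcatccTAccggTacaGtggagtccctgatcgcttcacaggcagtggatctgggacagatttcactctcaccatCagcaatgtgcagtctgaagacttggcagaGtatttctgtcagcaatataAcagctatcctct
Ighv6-3: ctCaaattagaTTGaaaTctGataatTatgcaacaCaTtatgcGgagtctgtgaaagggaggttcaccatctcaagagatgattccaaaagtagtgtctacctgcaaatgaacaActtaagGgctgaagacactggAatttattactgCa
Ighv6-6: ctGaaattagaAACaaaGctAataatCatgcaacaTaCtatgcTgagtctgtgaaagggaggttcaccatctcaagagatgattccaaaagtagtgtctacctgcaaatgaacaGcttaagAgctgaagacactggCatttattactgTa

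The stretch of Igkv6-23 lies at chr6:70260409-70260558 and that of Igkv6-15 at chr6:70406469-70406618, and they differ at 8 of 150 bases. Over the 347 aligned bases of their transcripts they were 94.5% identical. The stretch of Ighv6-3 lies at chr12:114391716-114391865 and that of Ighv6-6 at chr12:114434793-114434942, with 14 differing bases and 91.0% identity over 356 aligned bases. All 4 stretches are in the exon that encodes the V region. Cut into windows of 100 bases, the transcripts of these 4 genes shared no window with another listed gene. Of the 19 V genes examined in this way, 11 shared none, and Igkv5-43 shared the most, with 66.4% of its windows found in no other gene and the rest in Igkv5-45. Somatic mutation in the rearranged genes and the division of reads among copies by RSEM were not tested.

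Libraries held 27050455 to 31053622 expected counts, and Arid3a was 0.303 to 1.17 CPM (counts scaled to TMM-normalized library sizes) in cKO animals against 1.91 to 2.75 CPM in WT animals, without overlap. Immunoglobulin genes took 0.0195 to 0.0336% of a WT library and 0.00446 to 0.0119% of a cKO library. Of the 372 genes, 206 had a count in any library and 27 passed the filter on low counts. The 9 J segments and Iglc4 had none. A gene can pass that filter through 1 genotype alone, so the counts and medians over the genes that passed describe them and support nothing by themselves.

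Antibody message was lower in cKO crypts across heavy, kappa and lambda chains. Summed over all immunoglobulin genes it was 316, 325, 317, 256 and 194 CPM in WT animals 1 to 5 and 81.6, 126, 46.5, 64.3 and 78.6 CPM in cKO animals 1 to 5. Every cKO animal lay below every WT animal, and the means were 282 ± 56.3 and 79.5 ± 29.7 CPM (SD, n = 5), a 3.54-fold difference. These sums carry no test. In bulk tissue, fewer cells of a type and less RNA per cell cannot be told apart.

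By class, the sums of the heavy constant genes, the heavy V genes and the kappa V genes were 3.51-fold, 3.29-fold and 3.56-fold lower in cKO crypts, each without overlap between the genotypes. The lambda V genes were 2.98-fold lower, also without overlap. The lambda constant genes were 8.06 ± 3.20 CPM in WT and 2.70 ± 1.66 CPM in cKO animals (SD, n = 5), and there the groups overlapped.

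Of the 27 tested genes, 16 were lower and 0 higher in cKO crypts by edgeR's quasi-likelihood test at a Benjamini-Hochberg adjusted p below 0.05, against 12.7% of the 14719 genes tested that were lower, 15.6% that were higher and 28.3% that passed in either direction. At an unadjusted p below 0.05, 0 of the 27 were higher, and DESeq2 called 18 as lower and 0 as higher. In 9 of the 27 every cKO animal was below every WT animal, as in 7.63% of all genes tested. The median log2 fold change of the 27 was -1.92, and that of all genes tested was -0.03. Ighmbp2, the helicase gene, averaged 10.2 ± 0.864 CPM in WT and 8.71 ± 0.629 CPM in cKO animals (SD, n = 5) and did not pass (log2 fold change -0.23, adjusted p = 0.0775).

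**Figure D1:**
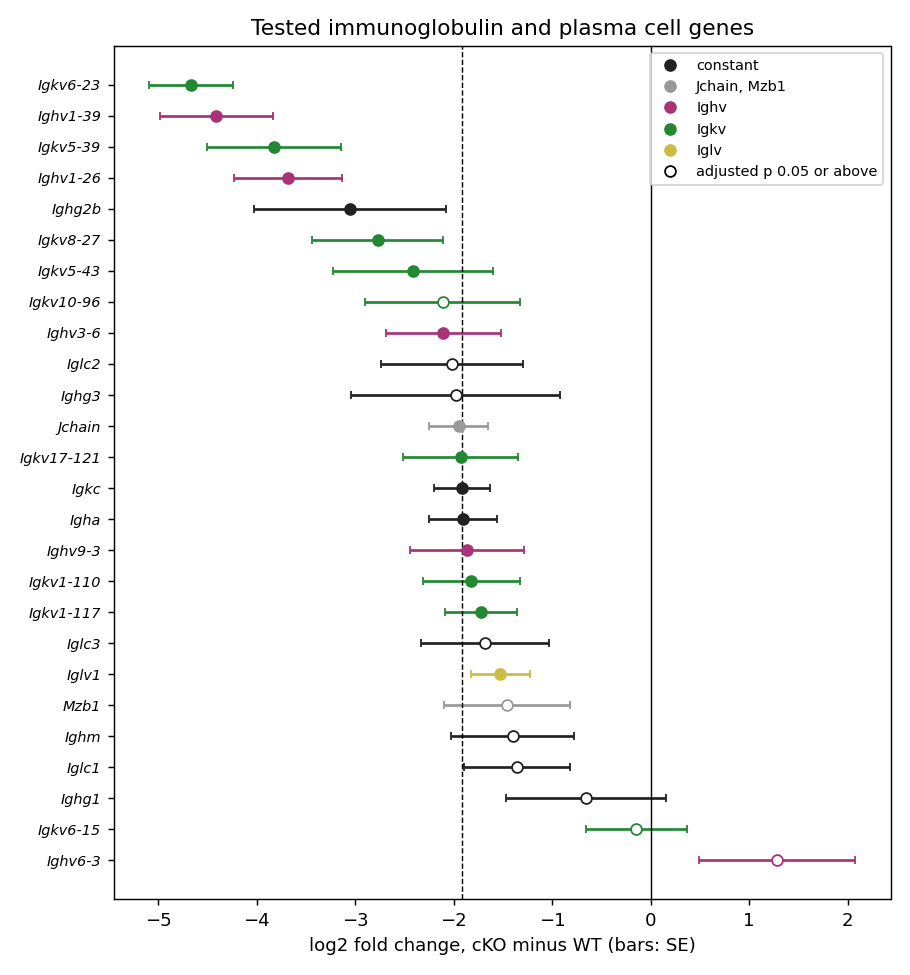
Log2 fold change of cKO against WT for the 26 tested immunoglobulin and plasma cell genes without Ighmbp2, with standard errors as bars. Filled points passed an adjusted p of 0.05, colours give the class of gene, and the dashed line is the change of Igkc (-1.92), near which Igha and Jchain lie while Igkv6-23 (-4.67) and Ighv6-3 (1.28) lie at the ends.

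Igha encodes the constant region of IgA. Its level was 118, 141, 121, 88.4 and 89.2 CPM in WT animals 1 to 5 and 34.7, 56.6, 18.8, 23.0 and 15.7 CPM in cKO animals 1 to 5. The groups did not overlap. It fell by 1.91 on the log2 scale (SE 0.35, edgeR adjusted p = 0.00505).

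Igkc, the constant gene that nearly every kappa transcript carries, was 83.2, 96.8, 80.5, 73.0 and 58.4 CPM in WT and 22.2, 36.1, 12.2, 14.1 and 19.2 CPM in cKO animals. The highest cKO animal, replicate 2, stayed below the lowest WT animal, replicate 5. The log2 fold change was -1.92 (SE 0.28, edgeR adjusted p = 0.00182).

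Jchain, which encodes the chain that joins IgA into dimers and IgM into pentamers, lies apart from the antibody loci at chr5:88519809-88527891 and has no V region. It was 25.7, 32.6, 26.8, 17.9 and 18.0 CPM in WT and 7.14, 10.9, 4.86, 4.86 and 3.52 CPM in cKO animals, again without overlap. Its log2 fold change of -1.95 (SE 0.30, edgeR adjusted p = 0.00196) was close to those of Igha and Igkc.

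**Figure D2:**
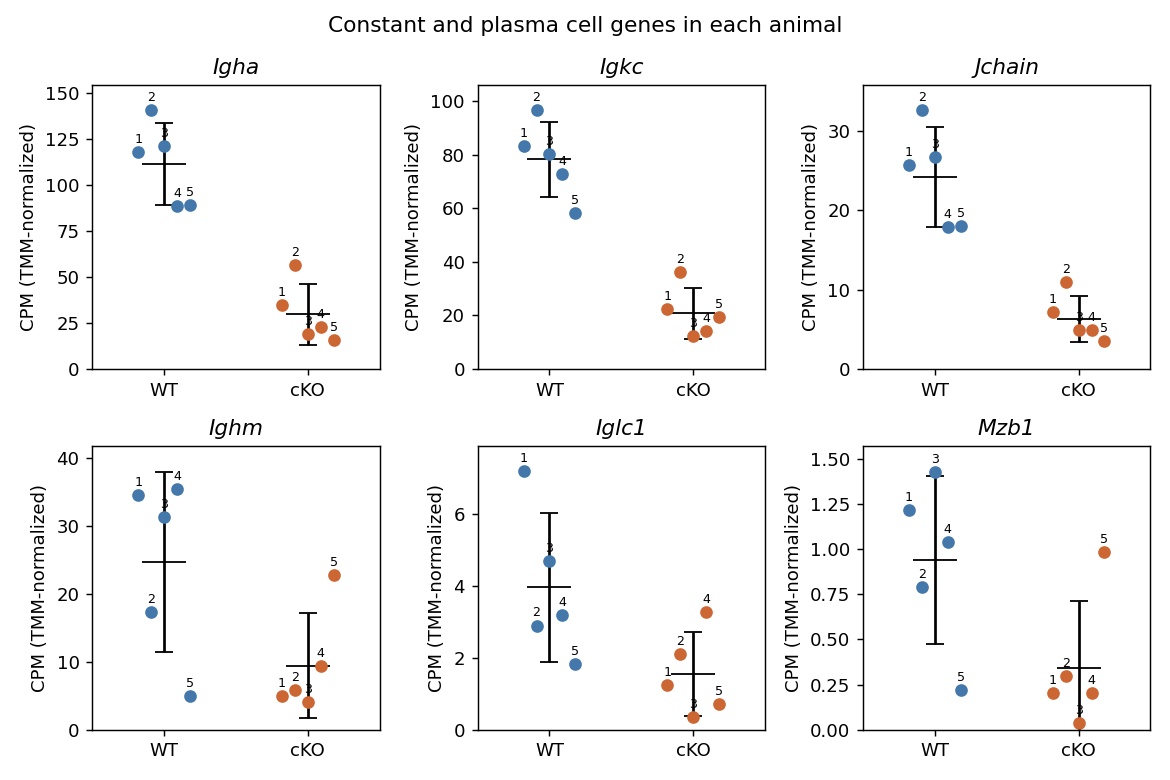
CPM on TMM-normalized library sizes of Igha, Igkc, Jchain, Ighm, Iglc1 and Mzb1, with 1 numbered point per animal and the mean and SD as bars (n = 5 per genotype). Igha, Igkc and Jchain do not overlap between genotypes, while Ighm does, with WT animal 5 at 4.91 CPM and cKO animal 5 at 22.7 CPM.

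Ighm, the constant gene of IgM and of the receptor of naive B cells, had WT levels of 34.5, 17.4, 31.4, 35.5 and 4.91 CPM and cKO levels of 4.92, 5.86, 4.02, 9.39 and 22.7 CPM. WT animal 5 lay among the cKO animals and cKO animal 5 among the WT animals. The log2 fold change was -1.40 (SE 0.63) and did not pass (edgeR adjusted p = 0.127). Without cKO animal 5 it was -2.03 (edgeR adjusted p = 0.0396).

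Most genes that mark B cells were, like Ighm, lowest among WT animals in animal 5 and highest among cKO animals in animal 5. Of 20 such genes, 18 were lowest in WT animal 5, 17 were highest in cKO animal 5 and 16 were both. Cd79a, a signalling chain of the B cell receptor, was 12.7, 4.72, 12.2, 13.0 and 0.655 CPM in WT and 0.472, 0.590, 0.699, 1.77 and 6.66 CPM in cKO animals. WT animal 5 lay among the cKO animals and cKO animal 5 among the WT animals. All 20 had a negative log2 fold change (median -1.83), 3 passed as lower (Cd79b, Ciita and Cd72) and 0 as higher, against 12.7% and 15.6% of all genes tested, with 7 lower and 0 higher at an unadjusted p below 0.05. Each of these 3 calls was lost on leaving out cKO animal 1, with adjusted p of 0.0576, 0.0567 and 0.0797 in edgeR. The part of B cells in the levels of Ighm and of the other constant genes was not tested.

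IgG message was scarce. Ighg2b was 4.39, 0.723, 6.72, 5.06 and 0.400 CPM in WT and 0, 0.664, 0.175, 0.170 and 1.10 CPM in cKO animals, and the groups overlapped. It passed as lower (log2 fold change -3.05, SE 0.98, edgeR adjusted p = 0.0434), but the call was lost on leaving out any of WT animals 1, 3 and 4 or cKO animals 1 to 4, with adjusted p up to 0.0934. Ighg3 (-1.98, adjusted p = 0.189) and Ighg1 (-0.66, adjusted p = 0.573) did not pass in the same fit.

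The lambda constant genes had negative log2 fold changes that did not pass in edgeR: -1.36 for Iglc1 (adjusted p = 0.0850), -2.02 for Iglc2 (adjusted p = 0.0577) and -1.68 for Iglc3 (adjusted p = 0.0739). All 3 passed in DESeq2, with adjusted p of 0.0259, 0.0157 and 0.0280. Without cKO animal 5, Iglc2 was at -2.92 (adjusted p = 0.0154) and Iglc3 at -2.51 (adjusted p = 0.0145) in edgeR. Iglv1, the most counted lambda V gene, passed as lower in the full set of animals. It averaged 2.71 ± 0.866 CPM in WT and 0.936 ± 0.369 CPM in cKO animals (SD, n = 5), without overlap (log2 fold change -1.53, SE 0.30, edgeR adjusted p = 0.00413).

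Mzb1 encodes a chaperone of the endoplasmic reticulum that helps assemble antibody. It was 1.22, 0.792, 1.43, 1.04 and 0.218 CPM in WT and 0.202, 0.295, 0.0350, 0.204 and 0.984 CPM in cKO animals, and the same 2 animals as for Ighm crossed between the groups. The log2 fold change of -1.46 (SE 0.64) did not pass (edgeR adjusted p = 0.107), and without cKO animal 5 it was -2.33 (edgeR adjusted p = 0.0184). Tnfrsf17, the receptor BCMA of plasma cells, had 0 to 3 counts per library and was not tested.

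The ratios of single genes within each animal were compared between genotypes. In log2 of the CPM ratio with 0.5 CPM added to each gene, Jchain over Igha differed by 0.09 between genotypes (two-sided exact permutation test, p = 0.349), and Igha over Igkc by -0.05 (exact p = 0.992). Without cKO animal 5 the difference of Igha over Igkc turned to 0.14 (exact p = 0.0397). Ighm over Igha differed by 0.67 (exact p = 0.460) and Iglc1 over Igkc by 0.77 (exact p = 0.119). Mzb1 over Igkc was higher in cKO animals by 1.19 (exact p = 0.0159), or 0.0794 after Benjamini-Hochberg adjustment over the 5 ratios. That last difference rests on the constant added, which exceeds the level of Mzb1 in 4 of the 5 cKO animals: with 0.5 counts added in place of 0.5 CPM it was 0.24 (exact p = 0.746).

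On the TPM scale of the authors, which corrects for length, IgA made up 84.5 ± 8.78% of the heavy constant message in WT and 78.6 ± 18.1% in cKO animals (SD, n = 5). The groups overlapped. In cKO animal 5 the share of IgA was 47.9% and that of IgM 45.9%, whereas the other cKO animals held 76.9 to 91.7% IgA. The lambda share of light constant TPM was 10.9 ± 3.56% in WT and 13.8 ± 9.39% in cKO animals, with 27% in cKO animal 4 and 20.3% in cKO animal 5. These animals share the stem of their identifiers. The Igkv TPM was 63.2 ± 9.0% of Igkc TPM in WT and 69.7 ± 5.37% in cKO animals, with overlapping groups.

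Of the 15 V genes that passed the filter, 12 were lower in cKO crypts and 0 higher, also at an unadjusted p below 0.05. Over all genes tested, 12.7% were lower and 15.6% higher by the adjusted p. Igkv6-23, the kappa V gene printed above, was 4.46, 3.51, 1.80, 2.21 and 3.05 CPM in WT and 0.0337, 0.184, 0.140, 0.0340 and 0.189 CPM in cKO animals. The groups stood far apart, and its log2 fold change of -4.67 (SE 0.43, edgeR adjusted p = 0.00018) was the lowest of all genes tested. The heavy V gene Ighv1-39 was 1.32, 2.14, 1.12, 1.11 and 0.836 CPM in WT and 0, 0.111, 0, 0.0340 and 0.151 CPM in cKO animals. It fell by 4.41 on the log2 scale (SE 0.58, edgeR adjusted p = 0.000722), and the groups did not overlap either.

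The next were Igkv5-39 (-3.83), Ighv1-26 (-3.68), Igkv8-27 (-2.77) and Igkv5-43 (-2.41). The call of Igkv5-43, 1 of the genes that share windows with a copy, was lost without any single animal other than WT animal 2 and cKO animal 2. Ighv3-6 (-2.11), Igkv17-121 (-1.93), Ighv9-3 (-1.87), Igkv1-110 (-1.82), Igkv1-117 (-1.72) and Iglv1 (-1.53) lay near the change of Igkc. The call of Ighv9-3 was lost without any of WT animals 1 and 2 or cKO animals 1, 3, 4 and 5, with edgeR adjusted p up to 0.0728. Igkv10-96 (-2.11, adjusted p = 0.0699) did not pass in edgeR, with cKO animal 2 at 3.02 CPM and the other cKO animals at 0.175 to 0.341 CPM. Without cKO animal 2 its log2 fold change was -3.72 (edgeR adjusted p = 0.00152).

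Among the 15 tested, 2 V genes did not pass as lower and lay far from the change of Igkc. V genes below the filter were not tested singly, and among them Igkv8-30 had 4, 1, 2, 7 and 14 counts in WT and 22, 26, 46, 2 and 1 counts in cKO animals. Igkv6-15, the close copy of Igkv6-23, was 0.661, 0.758, 2.21, 0.703 and 0.582 CPM in WT and 1.62, 1.33, 0.769, 0.238 and 0.492 CPM in cKO animals. Its groups overlapped, with a log2 fold change of -0.14 (SE 0.51, edgeR adjusted p = 0.856). Ighv6-3 was 0.139, 0.172, 0.373, 0.301 and 1.53 CPM in WT and 1.99, 1.88, 1.75, 0.136 and 0.341 CPM in cKO animals. It was high in cKO animals 1 to 3 and in WT animal 5 and low in the rest (log2 fold change 1.28, SE 0.79, edgeR adjusted p = 0.252). Without WT animal 5 its log2 fold change was 2.30 (edgeR adjusted p = 0.0450).

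Whether single V genes moved apart from the constant gene was tested by fitting all genes with the Igkc count of each library in place of its size. In that fit 97.6% of the 14719 genes passed in either direction, nearly all as higher, since most genes did not fall with Igkc. The adjusted p is therefore close to the unadjusted one. Of the 15 V genes, 4 were lower and 2 higher relative to Igkc, and 9 did not pass. Over all genes tested, 0.0272% were lower relative to Igkc, and these were the same 4 V genes, so that share is not a separate rate to compare with. The 4 lower genes had few counts in cKO libraries and passed the filter through WT animals, so their direction follows in part from the filter.

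Igkv6-23 was 3.90 ± 1.37% of the Igkc count in WT and 0.606 ± 0.442% in cKO animals (SD, n = 5), a log2 difference of -2.75 in the fit (SE 0.54, edgeR adjusted p = 4.2e-07). Ighv1-39 was 1.63 ± 0.333% in WT and 0.267 ± 0.322% in cKO animals (-2.54, SE 0.62, edgeR adjusted p = 5.24e-05). Neither overlapped between the genotypes. Igkv5-39 (-1.93, adjusted p = 0.00473) and Ighv1-26 (-1.62, adjusted p = 0.00317) were lower with overlapping groups.

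Ighv6-3 was 0.767 ± 1.04% of the Igkc count in WT and 6.24 ± 5.50% in cKO animals (SD, n = 5), 3.06 higher on the log2 scale (SE 0.52, edgeR adjusted p = 2.29e-08). Igkv6-15 was 1.26 ± 0.836% in WT and 4.30 ± 2.40% in cKO animals (1.77, SE 0.47, edgeR adjusted p = 0.000199). Both pairs of groups overlapped. An exact permutation test of each V gene over Igkc was chosen after seeing the data. It was first run with 0.5 CPM added, more than the level of most of these genes in cKO crypts. At an unadjusted p below 0.05 it had 0 lower and 8 higher. A version with 0.5 counts, added after that result was seen, had 4 lower and 2 higher, the same 6 genes as the fit. It used the same data as the fit and gives no separate support. Its p were not adjusted over the 15 V genes. With 0.5 counts, exact p was 0.0238 for Ighv6-3 and Igkv6-15 and 0.00794, the smallest possible, for Igkv6-23 and Ighv1-39. It was 0.0317 for Ighv1-26 and 0.0476 for Igkv5-39. The smaller p of the fit with Igkc should not be read as a measure of the spread between animals. The filter favours V genes abundant in WT crypts, whose libraries hold more V counts, and with no filter 11 of 192 V genes were lower and 22 higher relative to Igkc. The share over all genes was not computed without the filter.

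**Figure D3:**
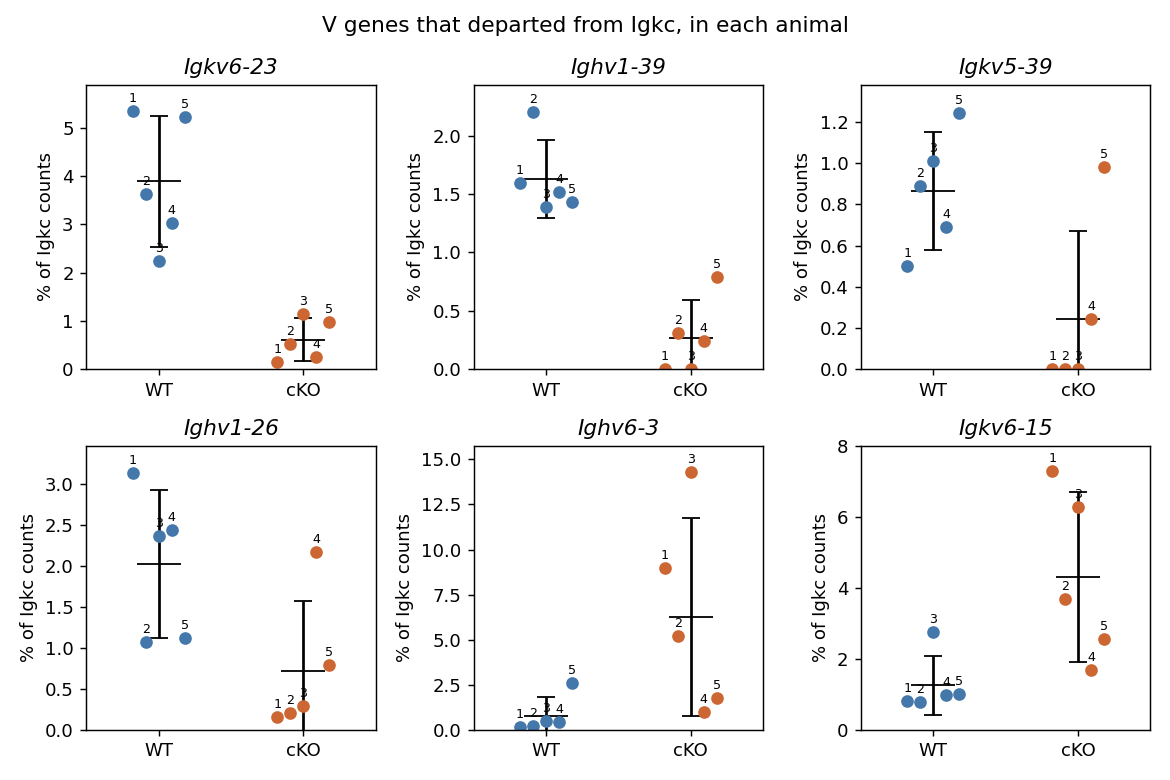
Counts of 6 V genes as a percentage of the Igkc count of the same animal, with 1 numbered point per animal and the mean and SD as bars (n = 5 per genotype). Igkv6-23 and Ighv1-39 do not overlap between genotypes, and Ighv6-3 is highest in cKO animals 1 to 3, with WT animal 5 above the other WT animals.

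The heavy V genes that took the largest share of the Ighv counts differed between animals. Ighv3-6 led in WT animals 1, 2, 3 and 5, with 11.1 to 23.5% of 367 to 737 counts, and Ighv1-26 led in WT animal 4. Ighv6-3 led in cKO animals 1, 2, 3 and 5, in animal 5 with 9 counts against 8 each for Ighv1-82 and Ighv5-9-1. The share of Ighv6-3 was 25.4, 22.7, 40, 2.63 and 7.32% in cKO animals 1 to 5 and 0.640, 0.678, 1.61, 1.88 and 11.4% in WT animals 1 to 5. The groups overlapped through WT animal 5 and cKO animals 4 and 5. The 40% in cKO animal 3 came from 125 counts and has a 95% Wilson interval of 31.8 to 48.8%, which covers counting error only. Ighv6-6, of the same subgroup, led in cKO animal 4 with 13.8%.

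The leading kappa V gene varied between animals too. Igkv8-30 held 28.8% of 160 Igkv counts in cKO animal 3, Igkv10-96 21.4% of 384 in cKO animal 2 and Igkv6-15 19.2% of 250 in cKO animal 1. Igkv1-110 led in cKO animal 4 with 7.81%. In cKO animal 5 it tied at 6.73% with Igkv1-117, with which it shares windows. Among WT animals the leading gene was Igkv10-96, Igkv6-23 or Igkv8-27, with 7.48 to 18.0%, and Igkv10-96 and Igkv6-23 tied in WT animal 1. The share of Igkv6-23 was 4.95 to 14.5% in WT and 0.400 to 2.50% in cKO animals and did not overlap.

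The effective number of V genes, the unbiased inverse Simpson number, overlapped between genotypes. For Ighv it was 19.98 ± 6.95 in WT and 16.2 ± 12.5 in cKO animals (SD, n = 5), and for Igkv 20.7 ± 7.35 and 21.6 ± 14.2. Among cKO animals the Igkv number was 12.5, 12.1 and 9.18 in animals 1 to 3 and 37.2 and 36.9 in animals 4 and 5, the animals with the highest Ighm and Cd79a levels of their group. Between animals, the median Pearson correlation of Ighv shares was 0.756 for 10 WT pairs, 0.363 for 25 pairs across genotypes and 0.451 for 10 cKO pairs. For Igkv shares it was 0.807, 0.490 and 0.463. The Ighv median of the cKO pairs covers a split. Animals 1 to 3 correlated at 0.852 to 0.902, above the highest WT pair (0.828), and cKO pairs with animal 4 or 5 at 0.149 to 0.486. WT animal 5 correlated with cKO animals 1 to 3 at 0.667 to 0.723. In Igkv shares, cKO animals 1 to 3 correlated at 0.448 to 0.645. The correlations describe 185 and 160 V genes, most of them near 0. The cKO libraries held fewer V counts, whose part in the lower values was not tested.

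**Figure D4:**
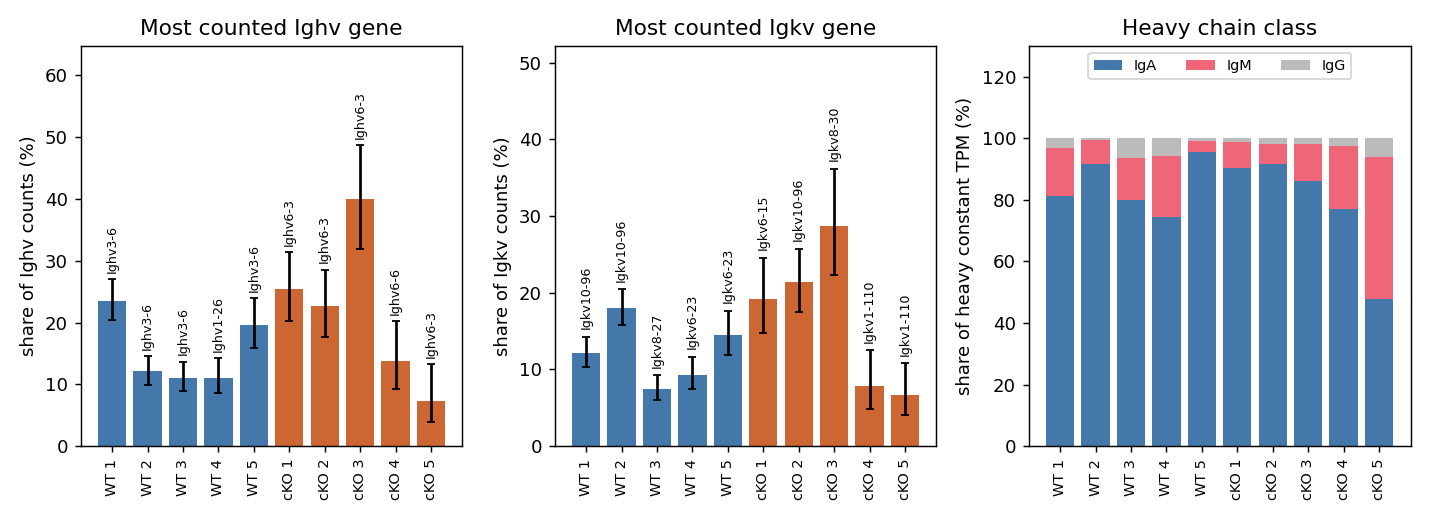
Left and middle, the share of the most counted Ighv and Igkv gene in each animal, with the gene named above its bar and 95% Wilson intervals. For Igkv in WT animal 1 and cKO animal 5, only 1 of the tied genes is named. Right, the shares of IgA, IgM and IgG in the heavy constant TPM of each animal; cKO animal 5 holds 47.9% IgA, and Ighv6-3 leads in cKO animals 1, 2, 3 and 5.

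Summed by subgroup before the test, 13 of 18 V subgroups were lower in cKO crypts and 0 higher. In the fit of single genes, 12.7% of all genes tested were lower and 15.6% higher. Igkv6, which holds Igkv6-23 and Igkv6-15, was lower by the sum (log2 fold change -2.06, SE 0.33, edgeR adjusted p = 0.00164). Ighv6 (1.15, adjusted p = 0.110) and Ighv7 (0.37, adjusted p = 0.649) had positive values that did not pass. The V genes below the filter were also lower as sums. The 180 untested Ighv genes had 199 to 516 counts per WT library and 48 to 133 per cKO library, and the 151 untested Igkv genes 175 to 642 and 112 to 171, without overlap in either class.

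Other genes listed for plasma cells and for the route of IgA had calls in both directions. Of 19 tested genes of the plasma cell list, 4 were lower, 4 higher and 11 did not pass, with a median log2 fold change of -0.31. Over all genes tested, 12.7% were lower and 15.6% higher. Irf4, a transcription factor that plasma cells need, was lower (-1.79, SE 0.60, edgeR adjusted p = 0.0457), a call lost in limma-voom (adjusted p = 0.0632) and on leaving out any of WT animals 1, 3 and 4 or cKO animals 1 to 4 (adjusted p up to 0.103). Fkbp11 (-0.60, edgeR adjusted p = 0.00909) and Txndc5 (-0.26, adjusted p = 0.00965) were lower by less, without overlap between the genotypes. Prdm1, which encodes BLIMP1 and is also expressed by villus enterocytes, was higher (0.90, adjusted p = 0.0106). Also higher in edgeR were Ell2 (0.53, adjusted p = 0.00605), Edem1 (0.30, adjusted p = 0.0123) and Cd38 (0.20, adjusted p = 0.0401). The call of Cd38 was lost in 11 alternative runs. In WT animals Txndc5, Edem1 and Cd38 averaged 262, 86.2 and 83.8 CPM, above the Jchain level of every WT animal. Ell2 (26.6 CPM) lay within the WT range of Jchain, and Fkbp11, Prdm1 and Irf4 (5.49, 2.21 and 1.24 CPM) lay below it. The part of plasma cells in the levels of these genes was not tested. Xbp1, the factor of the secretory response, is expressed by secretory epithelium too and averaged 191 ± 35.3 CPM in WT and 194 ± 18.1 CPM in cKO animals (SD, n = 5).

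Of 11 tested genes listed for the IgA route, Ccl25, the chemokine that draws CCR9-bearing cells to the small intestine, was higher (0.57, edgeR adjusted p = 0.00848). Fcgrt, on that list though it encodes a receptor of IgG, was higher too (0.46, adjusted p = 0.0201). Its call was lost in 4 alternative runs. Among them were those without cKO animal 1 (adjusted p = 0.0501), without cKO animal 5 (adjusted p = 0.0502) and with library size only (adjusted p = 0.0503). Tgfb1 was lower (-0.68, adjusted p = 0.0363), a call lost on leaving out any of WT animals 1, 3 and 4 or cKO animals 1 to 3. Pigr did not pass (0.25, adjusted p = 0.118). Of the genes of other cells around the epithelium, 4 of 15 myeloid, 1 of 17 T cell, 5 of 18 stromal and endothelial and 0 of 10 pan-leukocyte genes were lower in edgeR, and 0 were higher in each list, against 12.7% lower and 15.6% higher of all genes tested. At an unadjusted p below 0.05, 1 pan-leukocyte gene was lower and 0 genes of these lists were higher. The summed level of the stromal and endothelial list was 68.4 to 162 CPM in WT and 35.0 to 195 CPM in cKO animals, with Col3a1 alone at 66.1 CPM in cKO animal 4. From that list Adamdec1 (log2 fold change -2.17, edgeR adjusted p = 0.000926), Dnase1l3 (-2.26, adjusted p = 0.00126) and Pxdn (-2.30, adjusted p = 0.00724) were lower without overlap. Myeloid Aif1 (-1.86, adjusted p = 0.00204) was too. These falls were about as large as that of Igkc. The part of the cells of these lists in the antibody message was not tested.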

How the data were processed

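Polyadenylated RNA of 10 crypt libraries was analysed, 5 per genotype, grouped by the labels. The authors aligned reads with STAR, estimated expected counts with RSEM (nf-core/rnaseq, Ensembl 95, GRCm38; strand setting not given in the sources used here), and deposited expected counts, TPM and FPKM for each gene without normalization between libraries. FPKM was not used, and the deposited TPM served only for shares per length. Symbols and coordinates came from GENCODE M21, in which 54723 of 54838 identifiers matched.

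Expected counts were rounded and tested over the whole table with edgeR 4.0.16 in R 4.3.3 (TMM, filterByExpr with a minimum count of 10 and a minimum total of 15, robust quasi-likelihood, Benjamini-Hochberg adjustment, threshold 0.05), with genotype as the term. The study used DESeq2, run here as an alternative (1.42.0) beside RLE factors, library size only, limma-voom 3.58.1, other filters, unrounded counts, a replicate block and leaving out each animal. Exact tests used all assignments of animals to genotypes (smallest p 0.00794) with scipy 1.17.1, and sequences were aligned with Biopython 1.88. Steps were tested on simulated data.

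The genes and lists were chosen with earlier results of these data known. Named were the tested constant genes, the 3 plasma cell genes, the V genes with the highest mean CPM, the largest share in any library or the largest change, and for other lists the genes with the largest changes past the threshold and a few fixed markers, of which 1 is not reported here. Igkv1-117, Igkv17-121 and Ighv9-3 are named as the rest of the V genes tested. The replicate numbers do not pair the animals: same-numbered animals correlated at -0.16 to 0.13.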

Additional observations from a re-analysis of the deposited data

Results flagged for a closer look

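Among 72 groups of 5 animals examined with Dixon's test at the 95% level, 13 values stood apart from the others of their genotype; chance gives about 1 in 20 groups. In WT animals these were Ighg3 in replicate 3 (3.054 CPM, others at most 0.870), Ighv6-3 in replicate 5 (1.527 CPM, others at most 0.373), Igkv1-110 in replicate 4 (0.7369 CPM, others at least 2.298), Igkv5-43 in replicate 1 (4.038 CPM, others at most 1.742) and Igkv6-15 in replicate 3 (2.206 CPM, others at most 0.758).

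In cKO animals, replicate 5 stood apart in Ighm (22.71 CPM, others at most 9.385), Mzb1 (0.984 CPM, others at most 0.295), Igkv5-39 (0.1892 CPM, others at most 0.0340) and the log2 ratio of Igha to Igkc (-0.2869, others at least 0.598). Replicate 2 stood apart in Igkv10-96 (3.023 CPM, others at most 0.341) and Igkv5-43 (1.475 CPM, others at most 0.170), replicate 1 in Igkv8-27 (0.8761 CPM, others at most 0.140), and replicate 4 in the log2 ratio of Iglc1 to Igkc (-1.957, others at most -3.70).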

How the results depend on the processing

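Igkc, Igha, Jchain and Arid3a kept their direction and their side of the threshold in every alternative run, with log2 fold changes of -2.21 to -1.77, -2.28 to -1.75, -2.25 to -1.80 and -2.13 to -1.65 on leaving out each animal. Arid3a could not be tested with at least 10 counts required in every library. The number of called members, 16, was 37 of 206 with no filter, 4 of 7 with at least 10 counts in every library, and 13 to 25 on leaving out each animal, with 25 without cKO replicate 5, where more genes passed the filter. Shares over all genes were not computed for these settings. The V genes apart from Igkc, 6 of 15, became 33 of 192 with no filter (11 lower, 22 higher) and 0 of 1 with at least 10 counts in every library. On leaving out each animal they were 7 to 11. They were 10 of 18 without WT replicate 4, 10 of 23 without cKO replicate 2 and 11 of 24 without cKO replicate 4 or 5, runs in which more V genes passed the filter. The added exact test, unadjusted, called 8 with 0.5 CPM as the constant and 6 with 0.5 counts, a constant added after the first result was seen. With the replicate number as a block, although the numbers do not pair the animals, 14 members and 9 V genes relative to Igkc were called. The ratio Iglc1 to Igkc passed with a constant of 1 CPM (0.96, exact p = 0.0318) and ranged from 0.39 to 0.97 on leaving out each animal; Igha to Igkc ranged from -0.10 to 0.14, turning positive without cKO replicate 5 (0.14, exact p = 0.0397), and Mzb1 to Igkc was 0.24 with 0.5 counts. Inverse Simpson numbers over the tested V genes alone were 3.49 (WT) and 3.02 (cKO) for Ighv, and 6.60 (WT) and 5.11 (cKO) for Igkv, since fewer genes enter. Igkv6-15 ranged from -0.48 to 0.39 on leaving out each animal, turning positive without WT replicate 3, cKO replicate 4 or cKO replicate 5, and Xbp1 from -0.052 to 0.15, negative without WT replicate 1, WT replicate 3 or cKO replicate 1 and at -0.10 with library size only. Without WT replicate 5 and cKO replicate 5 together, chosen after seeing the data, 20 members were called. A V gene at 1 CPM rests on 26.4 to 29.9 counts per library.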
